A study of Mus musculus with 10 samples.

Results

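The data describe 10 genes that mark type 2 and migratory dendritic cells in the tumor-draining lymph node (TDLN) of the mouse. They were taken by name: Sirpa, Cd209a, Clec10a, Mgl2 and Itgax as the type 2 genes, and Fscn1, Ccl22, Ccl17, Cacnb3 and Cd83 as the migratory genes. Of 33585 genes with a value in the series, 13334 reached a mean of 1 FPKM over the 10 mice and were tested, and all 10 of the 10 genes were among them. FPKM is a count of fragments divided by transcript length and by the mapped fragments of the library, so levels of different genes can be set side by side. The study asked how blocking glycolysis after ablation of a tumor alters the draining node.

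All mice were female BALB/c animals aged 6 weeks that carried a tumor of 4T1, a mouse mammary carcinoma cell line. In all of them the tumor was treated by microwave ablation (MWA), which destroys tissue with heat, on day 10. The mice then received intraperitoneal injections every 2 days of either PBS (MWA+PBS group, n = 5, labelled MWA) or 2-deoxy-D-glucose at 500 mg/kg (MWA+2DG group, n = 5), a glucose analogue that inhibits glycolysis. The node was collected on day 15 and 1 bulk RNA-seq library was made per mouse. No group without ablation is among the libraries analysed here, so the values compare 2DG with PBS after ablation and not ablation with its absence.

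Dendritic cells take up antigen and present it to T cells. Conventional dendritic cells fall into a type 1 lineage, which is geared to CD8 T cells, and a type 2 lineage, which carries the inhibitory receptor SIRPα and favours CD4 T cells. When a dendritic cell of either lineage matures in a tissue, it turns on a shared program that includes the chemokine receptor CCR7, rebuilds its cytoskeleton and travels through the lymph to the draining node. The type 2 genes other than Itgax thus speak of lineage and the migratory genes of maturation state. Itgax, by which dendritic cells are commonly sorted, does not tell the lineages apart.

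The libraries held transcripts of lymphocytes and dendritic cells. Ms4a1, which marks B cells, lay between 82.5 and 119 FPKM, and Cd3e, which marks T cells, between 24.2 and 38.8 FPKM. Zbtb46, the transcription factor of conventional dendritic cells, was above 0 in all 10 libraries at 1.31 to 2.65 FPKM, and Flt3, the receptor for their growth factor, at 2.46 to 4.95 FPKM. The libraries differed in one way that the treatment does not account for. Alb, the liver gene for albumin, was at no more than 0.0486 FPKM in replicates 1 and 2 of both groups and at 35.1 to 102 FPKM in replicates 3 to 5 of both groups. On principal component analysis, 36.4% of the variance lay along an axis that set the 4 libraries of replicates 1 and 2 apart from the other 6. The labels name no batch, and each set holds equal numbers of both treatments, so the differences of the 10 genes are also given within the sets. MWA+2DG replicate 5 had 517.5 FPKM of Bst2, an interferon-induced gene, against 68.5 to 209.4 FPKM in the other 9 libraries. For genes and medians whose values moved most without it, those values are given as well.

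The upstream sequence of 3 genes is shown. Ccl17 and Mgl2 have the only windows of these genes that hold the motif marked below, and Ccl22, on chromosome 8 as Ccl17 is, encodes the other ligand of the receptor CCR4. Each window is the 250 bases before the RefSeq start of the gene in GRCm38.p6, on the plus strand: chr8:94745434-94745683 for Ccl22, chr8:94810203-94810452 for Ccl17 and chr11:70130107-70130356 for Mgl2. Capitals mark GAGGAA, the core bound by PU.1, a transcription factor of myeloid cells, which was searched on both strands.
Ccl22: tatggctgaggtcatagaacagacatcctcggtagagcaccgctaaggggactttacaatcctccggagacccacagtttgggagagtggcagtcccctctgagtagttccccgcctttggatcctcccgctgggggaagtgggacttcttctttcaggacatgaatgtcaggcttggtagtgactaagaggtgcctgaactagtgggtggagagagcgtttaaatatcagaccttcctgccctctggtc
Ccl17: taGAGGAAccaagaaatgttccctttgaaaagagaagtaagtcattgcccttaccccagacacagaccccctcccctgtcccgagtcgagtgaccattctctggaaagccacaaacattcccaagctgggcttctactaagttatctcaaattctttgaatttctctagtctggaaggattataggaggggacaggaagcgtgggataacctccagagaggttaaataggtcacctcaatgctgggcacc
Mgl2: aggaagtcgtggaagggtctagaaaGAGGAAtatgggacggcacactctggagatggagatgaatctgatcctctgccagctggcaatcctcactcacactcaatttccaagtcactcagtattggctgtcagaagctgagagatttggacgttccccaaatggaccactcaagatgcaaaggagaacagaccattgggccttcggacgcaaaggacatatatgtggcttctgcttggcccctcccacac
The core occurred once in the Mgl2 window, 225 bases before the start, and once in the Ccl17 window, 248 bases before the start. The Ccl22 window did not hold it. RefSeq windows were matched for 7 of the 10 genes, in 8 windows, and Clec10a, Sirpa and Cd83 were not matched. The core occurred in 7639 of 32851 promoter windows of this length (23.3%), so its presence in 2 of 8 is near that share. The 10-base motif of NF-kB, a factor that drives dendritic cell maturation, occurred in 0 of the 8 windows and in 7.25% of all windows.

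No gene of the 10 differed between the treatments after adjustment. In limma with Benjamini-Hochberg adjustment, 0 of the 13334 tested genes had an adjusted p below 0.05 (0% called), 567 had an unadjusted P below 0.05, and an exact Wilcoxon rank-sum test gave 416 genes at that unadjusted threshold. The adjusted limma p was at least 0.995 for each of the 10 genes. Of the 10 genes, only Clec10a had an unadjusted limma P below 0.05, and its level was lower with 2DG. Among all tested genes 2.62% passed that threshold with a lower level and 1.63% with a higher one, and 0 of the 10 genes were on the higher side. With the study's own fold threshold added (a log2 fold change below -0.25), 1.87% of all genes and again Clec10a alone passed. The log2 fold change was below 0 for 6 of the 10 genes and for 47.4% of all tested genes. Fold changes are on the log2(FPKM + 1) scale, MWA+2DG minus MWA+PBS, and understate the change of genes near 1 FPKM. In bulk tissue, fewer cells of a type and less RNA per cell cannot be told apart.

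**Figure D1:**
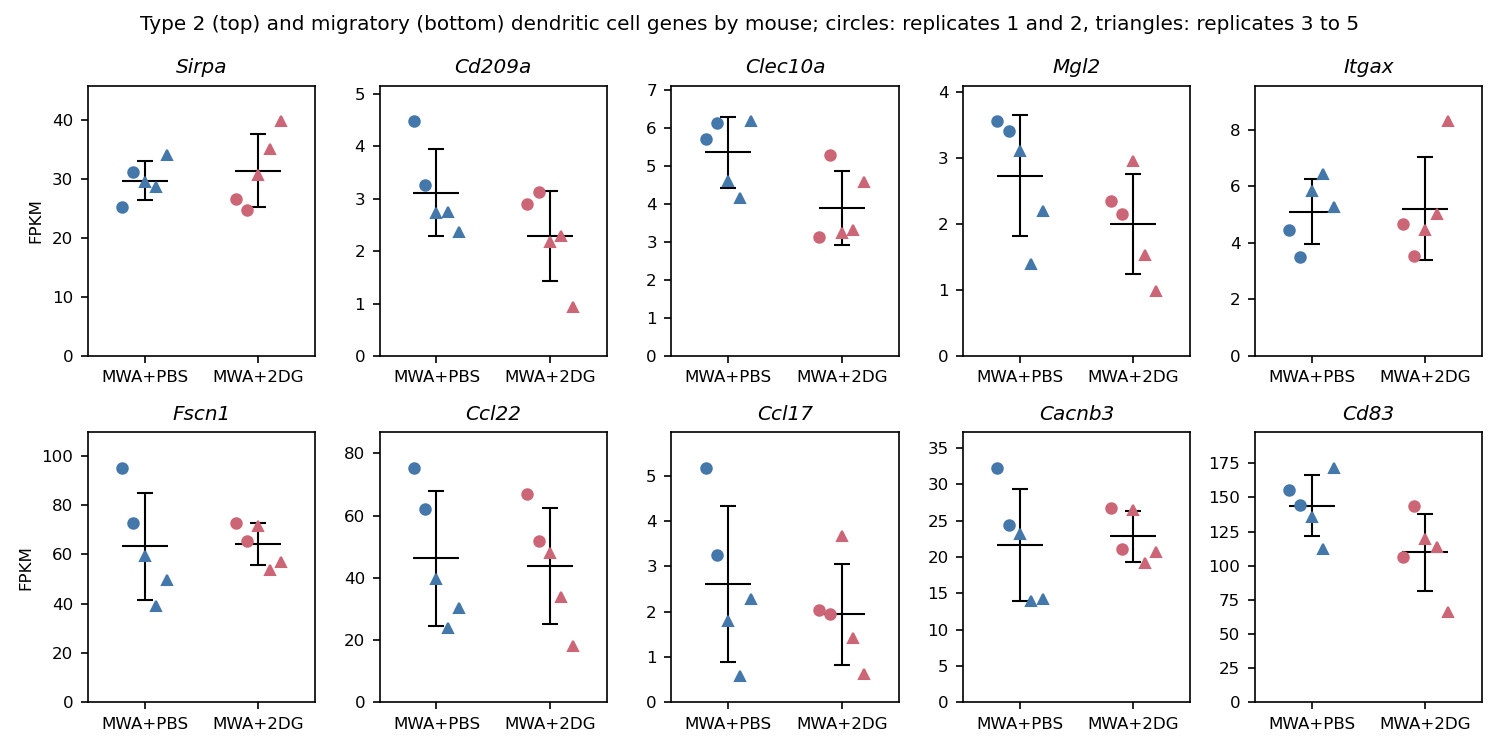
FPKM of the 5 type 2 genes (top row) and the 5 migratory genes (bottom row) in each mouse, by treatment on the x axis; points are mice (circles, replicates 1 and 2; triangles, replicates 3 to 5), the horizontal line is the mean and the bar 1 SD, n = 5. The treatments overlap for every gene, and the 5 MWA+2DG mice lie below the MWA+PBS mean only for Clec10a and Cd83.

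Among the type 2 genes, the C-type lectins Clec10a, Cd209a and Mgl2 had lower means with 2DG, whereas Sirpa and Itgax had nearly equal means. Clec10a encodes a galactose-type lectin that binds sugars on antigens for uptake. It measured 5.72, 6.13, 4.60, 4.15 and 6.17 FPKM in MWA+PBS replicates 1 to 5 and 3.12, 5.29, 3.22, 3.31 and 4.57 FPKM in MWA+2DG replicates 1 to 5. All 5 MWA+2DG mice lay below the MWA+PBS mean and 3 lay below every MWA+PBS mouse, yet the groups overlapped. The mean was 5.35 ± 0.924 FPKM (SD, n = 5) with PBS and 3.90 ± 0.972 FPKM (SD, n = 5) with 2DG. The log2 fold change was -0.38 (SE 0.14, 95% interval -0.70 to -0.06), with limma P = 0.0229 (adjusted p = 0.995) and p = 0.0476 in a two-sided exact permutation test of the single gene. The smallest value that 5 mice against 5 allow in the latter is 0.00794. The limma P was 0.0548, 0.0551, 0.0573, 0.0562 and 0.0544 without MWA+PBS replicate 2, MWA+PBS replicate 5 and MWA+2DG replicates 1, 3 and 4, in that order. Without MWA+PBS replicates 1, 3 and 4 and MWA+2DG replicates 2 and 5 it was 0.0480, 0.0218, 0.0106, 0.00506 and 0.0173, in that order.

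Cd209a encodes a mouse relative of the human lectin DC-SIGN. It measured 4.48, 3.27, 2.73, 2.74 and 2.36 FPKM in MWA+PBS replicates 1 to 5 and 2.90, 3.13, 2.18, 2.28 and 0.939 FPKM in MWA+2DG replicates 1 to 5. The highest 2 mice had received PBS and the lowest 3 had received 2DG, with overlap between. Its log2 fold change was -0.35 (SE 0.20, 95% interval -0.80 to 0.10, exact permutation p = 0.167). With the lowest mouse, MWA+2DG replicate 5, left out, it was -0.17. Of its 6 relatives Cd209b to Cd209g, only Cd209b and Cd209d reached the filter. Cd209b, which is a gene of marginal zone and medullary macrophages, ranged from 17.7 to 87.9 FPKM with PBS and from 3.58 to 70.3 FPKM with 2DG. Its log2 fold change was -0.73 (exact permutation p = 0.421), with 0.05 within replicates 1 and 2 and -1.24 within replicates 3 to 5. Cd209d differed by -0.37 on that scale (exact permutation p = 0.405).

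Mgl2, the second galactose-type lectin gene, marks type 2 dendritic cells of the skin and its draining nodes. It measured 3.55, 3.40, 3.10, 1.39 and 2.19 FPKM in MWA+PBS replicates 1 to 5 and 2.35, 2.15, 2.95, 1.53 and 0.986 FPKM in MWA+2DG replicates 1 to 5. Mice of both treatments were found at both low and middle levels, and the highest 3 mice had received PBS. For Mgl2 the log2 fold change was -0.32 (SE 0.22, 95% interval -0.80 to 0.17, exact permutation p = 0.238) and it was -0.18 without MWA+2DG replicate 5. The longest open reading frames of Clec10a (927 bases) and Mgl2 (1146 bases) were identical at 90.5% of aligned bases and shared a run of 183 bases, so how fragments were split between these 2 genes is uncertain. Their summed level, which does not depend on that split apart from length, ranged from 5.54 to 9.53 FPKM with PBS (median 8.36) and from 4.84 to 7.43 FPKM with 2DG (median 5.55).

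Sirpa encodes SIRPα, the receptor for CD47 that restrains phagocytosis, and had the highest level of the type 2 genes. It measured 25.3, 31.2, 29.5, 28.6 and 34.1 FPKM in MWA+PBS replicates 1 to 5 and 26.7, 24.8, 30.7, 35.1 and 39.8 FPKM in MWA+2DG replicates 1 to 5. Both the lowest mouse and the highest 2 had received 2DG. Its log2 fold change was 0.06 (SE 0.13, 95% interval -0.22 to 0.35, exact permutation p = 0.643). Itgax encodes CD11c, the integrin chain by which dendritic cells are commonly sorted. It measured 4.47, 3.48, 5.82, 6.43 and 5.27 FPKM in MWA+PBS replicates 1 to 5 and 4.67, 3.55, 4.46, 5.02 and 8.30 FPKM in MWA+2DG replicates 1 to 5. The 2DG values spread around the PBS values, with MWA+2DG replicate 5 above all others. For Itgax the log2 fold change was 0.00 (SE 0.19, 95% interval -0.42 to 0.43, exact permutation p = 0.984), and -0.15 without MWA+2DG replicate 5. Macrophages and monocytes express both genes too.

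The median log2 fold change was -0.32 over the 5 type 2 genes (-0.17 without MWA+2DG replicate 5) and 0.01 over all tested genes. The summed FPKM of the lectins Cd209a, Clec10a and Mgl2 was 13.8, 12.8, 10.4, 8.28 and 10.7 in MWA+PBS replicates 1 to 5 and 8.37, 10.6, 8.35, 7.12 and 6.49 in MWA+2DG replicates 1 to 5. MWA+PBS replicate 4 fell among the 2DG mice and MWA+2DG replicate 2 among the PBS mice, so the sums overlapped. The mean of log2(FPKM + 1) over all 5 genes was between 2.66 and 2.91 with PBS and between 2.59 and 2.65 with 2DG, without overlap, but with a pseudocount of 0.1 the ranges were 2.34 to 2.69 and 2.16 to 2.36 and did overlap. No test was made of these means, because the genes were chosen with results known. For single genes, 0.802% of all tested genes and 0 of the 10 had every mouse of one treatment beyond every mouse of the other.

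The migratory genes had no difference between treatments past an unadjusted limma P of 0.05. Fscn1 encodes fascin, which bundles actin in the processes of mature dendritic cells. It measured 95.1, 72.7, 59.5, 39.2 and 49.7 FPKM in MWA+PBS replicates 1 to 5 and 72.9, 65.3, 71.4, 53.6 and 57.0 FPKM in MWA+2DG replicates 1 to 5. The 2DG mice all lay inside the range of the PBS mice. The means were 63.3 ± 21.7 FPKM and 64.0 ± 8.54 FPKM (SD, n = 5 each), and the log2 fold change was 0.07 (SE 0.21, 95% interval -0.38 to 0.53, exact permutation p = 0.778). Cacnb3, a β subunit of voltage-gated calcium channels that is used as a marker of migratory dendritic cells, measured 32.3, 24.5, 23.2, 13.9 and 14.3 FPKM in MWA+PBS replicates 1 to 5 and 26.8, 21.0, 26.4, 19.2 and 20.7 FPKM in MWA+2DG replicates 1 to 5. Again no 2DG mouse lay outside the PBS range. Its log2 fold change was 0.13 (SE 0.22, 95% interval -0.34 to 0.61, exact permutation p = 0.603). Its relative Cacnb1 lay at 1.32 to 2.77 FPKM, whereas Cacnb2, Cacnb4 and the fascin relatives Fscn2 and Fscn3 were below the filter.

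Ccl22 and Ccl17 are chemokines that mature dendritic cells release, and both bind CCR4 on activated and regulatory T cells. Ccl22 measured 75.4, 62.1, 39.7, 23.8 and 30.3 FPKM in MWA+PBS replicates 1 to 5 and 67.0, 51.9, 48.1, 34.0 and 18.1 FPKM in MWA+2DG replicates 1 to 5. In both groups replicates 1 and 2 were the highest mice, and the groups overlapped over nearly their whole range. For Ccl22 the log2 fold change was -0.07 (SE 0.38, 95% interval -0.91 to 0.77, exact permutation p = 0.881), and 0.20 without MWA+2DG replicate 5. Ccl17 measured 5.18, 3.24, 1.80, 0.586 and 2.27 FPKM in MWA+PBS replicates 1 to 5 and 2.03, 1.95, 3.67, 1.43 and 0.618 FPKM in MWA+2DG replicates 1 to 5. Each treatment had 1 mouse below 1 FPKM. For Ccl17 it was -0.24 (SE 0.36, 95% interval -1.03 to 0.54, exact permutation p = 0.571). Single mice moved this value widely, to -0.015 with MWA+PBS replicate 1 left out, -0.049 with MWA+2DG replicate 5 left out and -0.51 with MWA+PBS replicate 4 left out. The level of Ccl22 was 13.3 to 40.7 times that of Ccl17 with PBS and 13.1 to 32.9 times with 2DG. In their open reading frames the longest run that the 2 genes share was 9 bases, so their fragments were separable. Their receptor gene Ccr4 measured 2.58 ± 0.784 FPKM with PBS and 3.08 ± 1.28 FPKM with 2DG (SD, n = 5 each, log2 fold change 0.16, exact permutation p = 0.524).

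Cd83, which encodes a surface protein that stabilises MHC class II and CD86 on activated dendritic cells and B cells, measured 156, 145, 136, 113 and 172 FPKM in MWA+PBS replicates 1 to 5 and 107, 144, 120, 114 and 66.1 FPKM in MWA+2DG replicates 1 to 5. All 5 MWA+2DG mice lay below the MWA+PBS mean, 2 of them below every PBS mouse, and MWA+2DG replicate 2 lay level with MWA+PBS replicate 2. The means were 144 ± 22.2 FPKM with PBS and 110 ± 28.2 FPKM with 2DG (SD, n = 5 each). The log2 fold change was -0.42 (SE 0.19, 95% interval -0.83 to 0.00), with limma P = 0.0508 (adjusted p = 0.995) and p = 0.0794 by exact permutation. It came to -0.24 when MWA+2DG replicate 5 was left out. The median over the 5 migratory genes was -0.07, and its sign was not stable: it was 0.13, 0.06 and 0.11 without MWA+PBS replicate 1, MWA+PBS replicate 2 and MWA+2DG replicate 5. Leaving out MWA+PBS replicate 4 gave -0.27. The mean of log2(FPKM + 1) over them ran from 4.27 to 5.56 with PBS and from 4.26 to 5.14 with 2DG.

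**Figure D2:**
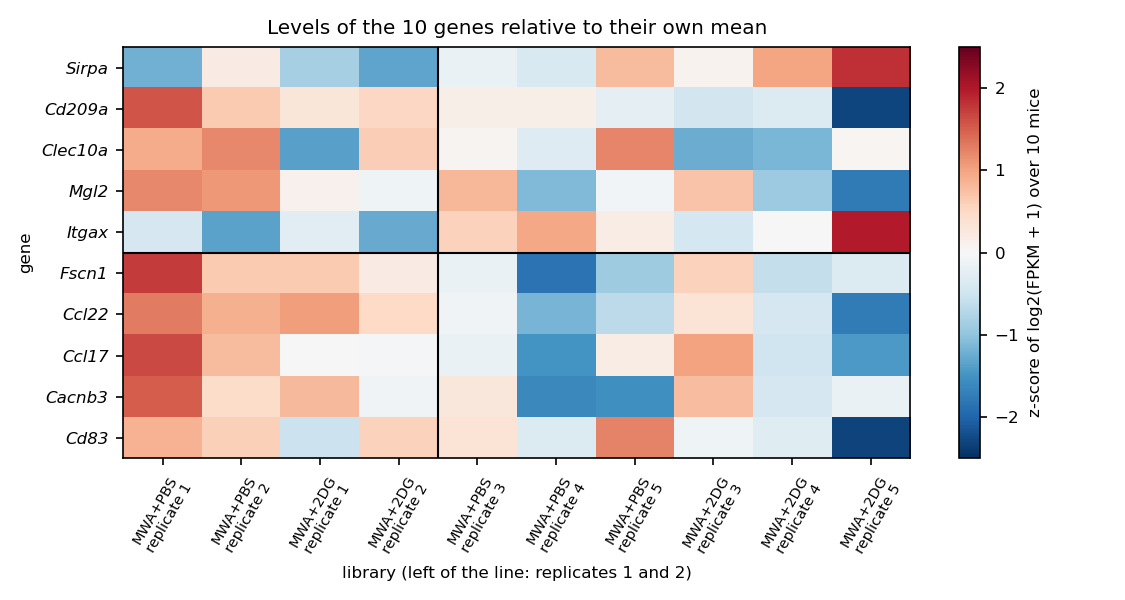
Level of each gene (rows) in each library (columns) as a z-score of log2(FPKM + 1) over the 10 mice, with replicates 1 and 2 left of the vertical line and type 2 genes above the horizontal line. MWA+PBS replicate 1 is among the 3 highest mice for 5 of 5 migratory genes and MWA+PBS replicate 4 among the 3 lowest for 5 of 5.

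In the PBS group, the same mice stood at the extremes of the migratory genes. MWA+PBS replicate 1 was among the 3 highest of the 10 mice for all 5 genes, and MWA+PBS replicate 4 among the 3 lowest for all 5. Ccl22 was at 51.9 to 75.4 FPKM in the 4 mice of replicates 1 and 2 and at 18.1 to 48.1 FPKM in the 6 of replicates 3 to 5, with no overlap. Cd209a also separated the sets, at 2.90 to 4.48 FPKM against 0.939 to 2.74 FPKM. Genes outside the 10 did so too. Tmem123 was at 193 to 203 FPKM against 137 to 181 FPKM, and Siglech at 9.45 to 10.1 FPKM against 2.57 to 7.01 FPKM. The share of all tested genes that separate the sets was not computed, so separation cannot be read as particular to these genes. Fscn1 was at 65.3 to 95.1 FPKM and 39.2 to 71.4 FPKM, with overlap. Sirpa and Itgax had the opposite order. Sirpa measured 27.0 ± 2.91 FPKM (SD, n = 4) in replicates 1 and 2 and 33.0 ± 4.22 FPKM (SD, n = 6) in replicates 3 to 5. The same sets differ in their liver transcripts, and the part of that difference in these levels was not tested.

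Within the replicate sets the lectins and Cd83 had a negative difference in both, while the other 6 genes differed in sign. The log2 fold change was -0.44 within replicates 1 and 2 and -0.34 within replicates 3 to 5 for Clec10a, and -0.27 and -0.40 for Cd209a. It was -0.46 and -0.22 for Mgl2, and -0.28 and -0.51 for Cd83. For Fscn1 the values were -0.27 and 0.30, for Cacnb3 -0.23 and 0.38, for Ccl17 -0.77 and 0.11, and for Sirpa -0.12 and 0.19. Ccl22 had -0.21 and 0.02, and Itgax 0.04 and -0.02. None of these differences between the sets passed a test: the smallest interaction P of the 10 genes was 0.0734, for Fscn1 (limma, adjusted p = 1.00). With the set as a term in the fit, Clec10a, Cd209a and Cd83 had a limma P below 0.05 with a lower level (adjusted p from 0.837 to 0.868). Of all genes, 3.28% did so in that fit.

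**Figure D3:**
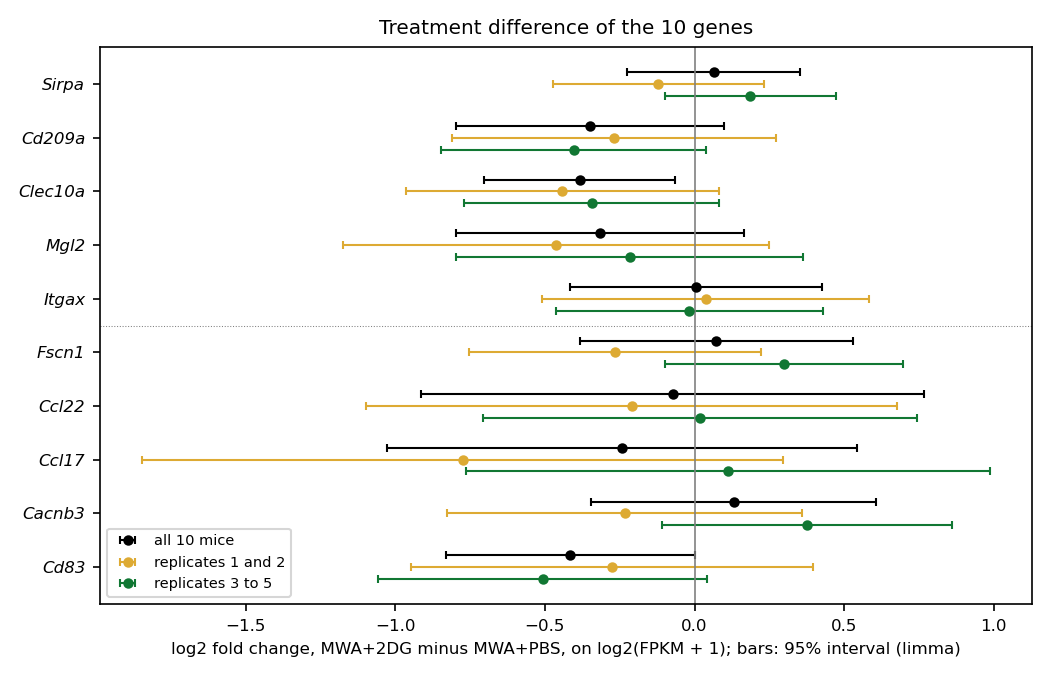
Log2 fold change of the 10 genes (x axis, log2(FPKM + 1) scale, MWA+2DG minus MWA+PBS) with 95% limma intervals, over all 10 mice and within each replicate set. Intervals within the sets use a variance pooled over all 10 mice. Only the Clec10a interval over all mice, -0.70 to -0.06, lies wholly below 0. The sign differs between sets for every gene but the 3 lectins and Cd83.

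By level, the order over the 10 mice was Cd83 (127 FPKM), Fscn1 (63.6), Ccl22 (45.0), Sirpa (30.6), Cacnb3 (22.2), Itgax (5.15), Clec10a (4.63), Cd209a (2.70), Mgl2 (2.36) and Ccl17 (2.28). The only neighbours in this order whose ranges did not overlap were Cacnb3 and Itgax. Cd83 exceeded Fscn1, Fscn1 exceeded Ccl22 and Clec10a exceeded Cd209a in 10 of 10 mice. Ccl22 exceeded Sirpa in 6 mice, Itgax exceeded Clec10a in 6 and Cd209a exceeded Mgl2 in 6, so these neighbours did not keep a fixed order. Apart from Ccl17, the migratory genes therefore had higher means than every type 2 gene but Sirpa. The means of Cd83, Fscn1 and Ccl22 lay above that of Sirpa, and the mean of Cacnb3 lay below it.

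The partners of these genes did not pass the test, with 0 of 9 tested at an unadjusted limma P below 0.05. Ccr7, the receptor that guides migratory dendritic cells and also naive T cells to the node, measured 76.7 ± 13.8 FPKM with PBS and 85.9 ± 7.44 FPKM with 2DG (SD, n = 5 each, log2 fold change 0.18, exact permutation p = 0.206). Its ligand genes Ccl19 and Ccl21a had log2 fold changes of -0.19 (exact permutation p = 0.476) and 0.02 (exact permutation p = 0.905). Cd47, the ligand gene of SIRPα, had 0.16 (exact permutation p = 0.317). The integrin genes Itgb2, whose product pairs with CD11c, Itgam and Itgal had -0.07, -0.14 and 0.10, with exact permutation p from 0.437 to 0.540. Cx3cl1, which encodes a membrane-bound chemokine, had 0.12 (exact permutation p = 0.222), and Itgad lay below the filter. Of the Sirpa relatives, Sirpb1a, Sirpb1b and Sirpb1c were below it as well.

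Other genes listed for these cells showed no shared direction. In bulk tissue these genes can also come from other cells of the node. Ltb averaged 320 FPKM and Tmem123 172 FPKM, against 2.06 FPKM for Zbtb46. The part of dendritic cells in the list values was not tested. Of 16 further type 2 genes 15 were tested, of which 8 had a higher and 7 a lower mean with 2DG and 0 had a limma P below 0.05 (median log2 fold change 0.01). The smallest P were those of Clec12a, an inhibitory lectin (log2 fold change -0.14, exact permutation p = 0.0317), Notch2, which directs a splenic type 2 subset (0.20, exact permutation p = 0.143), and S100a4 (-0.18, exact permutation p = 0.429). Irf4, the transcription factor of type 2 cells that B cells and plasma cells also use, had 0.05 (exact permutation p = 0.460). Of 35 further migratory genes 30 were tested, 19 higher and 11 lower, with 0 at P below 0.05 and a median of 0.03. Il4i1, an amino acid oxidase, had -0.43 (exact permutation p = 0.111), Anxa3 had -0.27 (exact permutation p = 0.175), and Cd40, the receptor for T cell help, had -0.16 (exact permutation p = 0.0952). The lists of all conventional dendritic cells (6 of 6 tested) and of type 1 cells (9 of 10 tested) had medians of 0.02 and 0.07 and 0 genes at P below 0.05. In the first, Dpp4 (0.28), Spi1 (-0.08) and Kmo (0.03) had the smallest P, and in the second Itgae (-0.23), Snx22 (0.22) and Xcr1 (0.14).

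**Figure D4:**
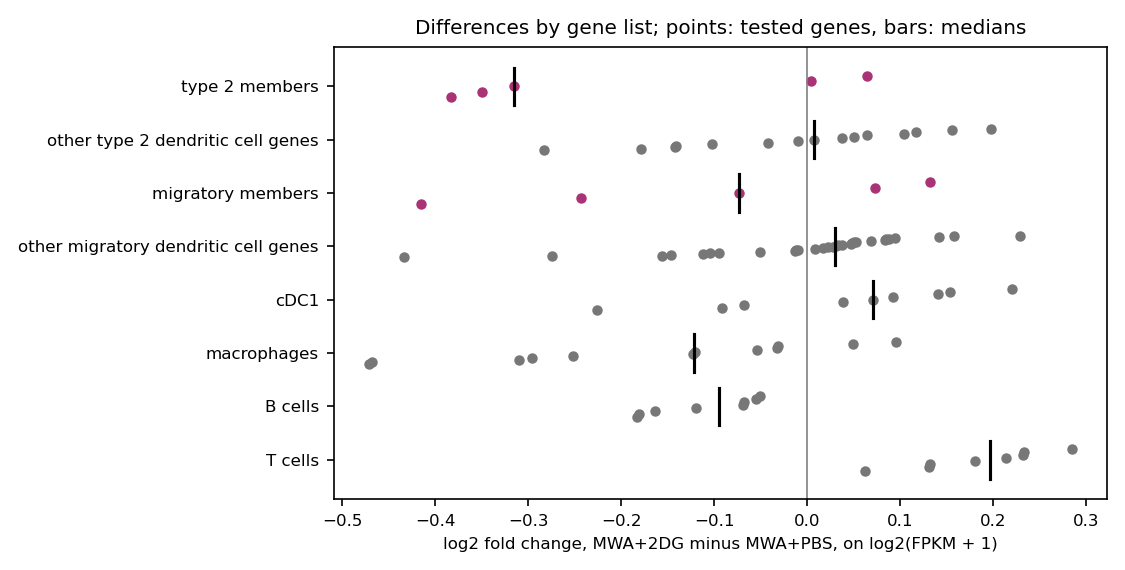
Log2 fold change (x axis, log2(FPKM + 1) scale, MWA+2DG minus MWA+PBS) of each tested gene in 8 lists, with the list median as a bar. The 3 type 2 lectins lie at -0.38 to -0.32, while the medians of the other type 2 and other migratory lists are 0.01 and 0.03.

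Macrophages also express the galactose-type lectins and Cd209 genes, and most of their markers had lower means with 2DG as well. Of 14 macrophage genes 12 were tested, 10 had a lower mean and 2 had a limma P below 0.05 (median log2 fold change -0.12). Those 2 were Lyz2, which encodes lysozyme (log2 fold change -0.47, exact permutation p = 0.0317), and Csf1r, the receptor for the macrophage growth factor (-0.30, exact permutation p = 0.0873), and the third by P was Timd4 (-0.31, exact permutation p = 0.405). The 2 genes with a higher mean were Cd68 (0.10, exact permutation p = 0.643) and Mertk (0.05, exact permutation p = 0.738). The summed level of the list, most of it Lyz2, ranged from 1698 to 2596 FPKM with PBS and from 1179 to 1782 FPKM with 2DG. Of the defining markers, Adgre1 was above 0 in all 10 libraries, and Vsig4 was listed at 0 in 9. Whether these cells account for the lectin values was not tested.

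B cells carry Cd83, and all 8 of their 8 markers had lower means with 2DG (median log2 fold change -0.09). Blnk, an adaptor of the B cell receptor, had -0.18 (exact permutation p = 0.0317), Ms4a1 had -0.18 (exact permutation p = 0.127) and Cd79b had -0.16 (exact permutation p = 0.159). The summed B cell level was 1451 to 1637 FPKM with PBS and 1346 to 1580 FPKM with 2DG, with overlap. All 8 T cell markers had higher means (median 0.20), 2 of them, Cd8a (0.28, exact permutation p = 0.0556) and Cd4 (0.23, exact permutation p = 0.0794), at P below 0.05, and Cd28 came next (0.23, exact permutation p = 0.0952). Summed T cell levels were 268 to 419 FPKM with PBS and 289.5 to 404 FPKM with 2DG. No marker of these lists passed an adjusted p of 0.05, and their part in the dendritic cell values was not tested.

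The genes whose levels across the 10 mice were most like the mean z-score of the 5 migratory genes were Vasp (Pearson r = 0.962), Eno3 (0.953), Zc4h2 (0.953), Snapc5 (0.948) and Nsmce3 (0.947). Vasp encodes an actin-binding protein, as Fscn1 does. For the type 2 genes they included Rfc2 (0.871), Gm10076 (0.866), Gapt (0.854) and Cdkn2a (0.848). These values describe 10 mice that also share the 2 treatments and the 2 replicate sets. They were selected as among the highest of all tested genes outside the 10. The mean z-score of the type 2 genes itself ran from -0.14 to 0.42 with PBS and from -0.41 to -0.04 with 2DG.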

How the data were processed

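RNA-seq was done on 10 TDLNs, 5 per treatment. The authors deposited FPKM values per gene, 1 table per mouse. Per the submitters' processing notes and the study's methods, reads were trimmed and checked (cutadapt 1.9, fastp), mapped with HISAT2 2.0.4 and assembled with StringTie 1.3.4d and ballgown. The notes name UMI-tools and mm9, whereas the promoter windows are from GRCm38.p6. For the quantification, the sources used here do not state whether molecular identifiers served. FPKM values hold no read counts, so depth is unknown and no counting error can be given.

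Symbols matched 33541 of 33643 identifiers, and values of 57 symbols with several identifiers were summed. Genes whose mean reached 1 FPKM entered limma 3.58.1 (R 4.3.3, lmFit and eBayes) as log2(FPKM + 1), without a covariate (Benjamini-Hochberg adjustment over all tested genes). The study names limma but no pseudocount or filter. The fit was tested on simulated data. Single genes were also compared with two-sided exact permutation tests over all 252 regroupings (Python 3.11.15, scipy 1.17.1). Each mouse is a replicate by its label, and no 2 libraries held the same values.

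The 10 genes and the gene lists were chosen with earlier results of these data known, and the lists came from general knowledge. Named genes were the 10, the partners and relatives above 0 in at least 5 libraries, the 3 genes of smallest limma P in each list, cell type markers, and the 5 genes most like each set. Not every gene so chosen is reported here. Alternatives comprised 0.1 as pseudocount, all genes unfiltered or only those of at least 5 FPKM, totals of 1000000, quantile and median ratio scaling, limma-trend, the Wilcoxon test, a replicate block, a term for the replicate sets and leaving out each mouse. Differences within replicate sets were added after seeing the data. They came from a single fit of treatment by set to all 10 mice. Their intervals and P values therefore rest on a variance pooled over both sets. Identity between relatives was taken over aligned bases of the longest open reading frames in the reference transcripts.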

Additional observations from a re-analysis of the deposited data

Results flagged for a closer look

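Each of the 10 genes was checked in each treatment for a mouse far from the other 4, by Dixon's test with a critical value of 0.71. Of these 20 groups of 5 mice, 0 were beyond it.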

How the results depend on the processing

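In 22 alternatives, 0 of the type 2 and 0 of the migratory genes that were tested passed an adjusted p of 0.05. All 5 of each were tested except with the filter of 5 FPKM, which left 2 type 2 and 4 migratory genes. Clec10a, Cd209a, Mgl2 and Cd83 kept a negative log2 fold change in every alternative that tested them. That of Clec10a lay between -0.48 and -0.33, with limma or Wilcoxon P below 0.05 in 13 of 21 (P from 0.00410 to 0.102). The count of type 2 genes at an unadjusted P below 0.05 was 1 as reported. It was 0 with a filter of 5 FPKM, which left only Sirpa and Itgax, and 0 with the exact Wilcoxon test. For the difference within either replicate set it was 0, with the variance taken from all mice. It was 2 with the set as a term and 0 to 2 when 1 mouse was left out. The count of migratory genes, 0 as reported, was 1 (Cd83) with median ratio scaling and with the set term, and 0 to 1 when 1 mouse was left out. The type 2 median log2 fold change was -0.45 with a pseudocount of 0.1, 0.034 with the filter of 5 FPKM, -0.22 within replicates 3 to 5, and -0.38 to -0.17 when 1 mouse was left out. The migratory median was -0.27 to 0.13 when 1 mouse was left out, -0.27 within replicates 1 and 2 and 0.11 within replicates 3 to 5.

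The labels do not say whether same-numbered mice were paired, and correlations between libraries cannot decide it. Deviations of same-numbered mice correlated at 0.33, 0.50, 0.11, 0.03 and 0.15 for replicates 1 to 5, and only replicate 2 correlated best with its own number. With a replicate block, 3 type 2 genes had P below 0.05 (Clec10a, Cd209a and Mgl2), as did 784 (5.88%) of all tested genes in that fit, against 4.25% without the block.

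Other signs changed with the setting. Itgax was -0.0074 with quantile normalization and -0.018 within replicates 3 to 5, and Ccl22 was 0.018 and Ccl17 0.11 in the latter. Ccl17 ranged from -0.51 to -0.015 when 1 mouse was left out. Within replicates 1 and 2, Fscn1 was -0.27, Cacnb3 -0.23 and Sirpa -0.12. When 1 mouse was left out, Itgax ranged from -0.15 to 0.10, with -0.030, -0.10 and -0.15 without MWA+PBS replicate 1, MWA+PBS replicate 2 and MWA+2DG replicate 5. Ccl22 ranged from -0.27 to 0.20, with 0.13, 0.062 and 0.20 without the same mice. Fscn1 ranged from -0.080 to 0.23 and Cacnb3 from -0.0014 to 0.29, both lowest without MWA+PBS replicate 4, and Sirpa from -0.024 to 0.14, lowest without MWA+2DG replicate 5. The cause of these changes was not tested. The largest shift of the median of all genes, to 0.07, came with totals of 1000000.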

Other observations

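Of 7 neutrophil genes, which belong to no dendritic cell list, 3 were tested and all 3 had lower means with 2DG. S100a9, a subunit of calprotectin, ranged from 7.52 to 46.9 FPKM with PBS and from 1.31 to 10.7 FPKM with 2DG (log2 fold change -1.61, exact permutation p = 0.0317), and S100a8, its partner, had -1.43 (exact permutation p = 0.0476). The 2 differences were -2.79 and -2.79 within replicates 1 and 2 but -0.82 and -0.51 within replicates 3 to 5. Csf3r had -0.14 (exact permutation p = 0.714). Among plasmacytoid dendritic cell genes, Siglech had -0.49 (exact permutation p = 0.238), Tcf4 -0.10 (exact permutation p = 0.349) and Runx2 0.09 (exact permutation p = 0.341), and among monocyte genes Ccr2 had -0.27 (exact permutation p = 0.286), Ms4a4c 0.17 (exact permutation p = 0.754) and Ly6c2 0.08 (exact permutation p = 0.921). Siglech had -0.03 within replicates 1 and 2 and -0.79 within replicates 3 to 5. For Siglech and S100a8 the interaction of treatment and set had an unadjusted limma P below 0.05 (adjusted p = 1.00). Of liver genes, 8 of 8 were tested (median -0.31, 0 at P below 0.05), with Serpina1a (-0.12), Fgb (-0.33) and Trf (-0.19) of smallest P. Adipoq (1.01, exact permutation p = 0.167) and Cidec (0.77, exact permutation p = 0.254) were the 2 fat genes tested, and Krt18 (0.37, exact permutation p = 0.365) and Epcam (-0.05, exact permutation p = 0.738) the 2 epithelial genes. None passed an adjusted p of 0.05 (limma with Benjamini-Hochberg adjustment).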
